A study of Homo sapiens with 10 samples.

Results

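The genes described here are the plasma membrane and lysosomal carriers of amino acids and of amino-acid-derived transmitters in families SLC1, SLC3, SLC6, SLC7, SLC36, SLC38 and SLC43. The rule reads symbols alone and uses no measured value, though the families were picked with earlier results of these data known. Of the 23018 symbols on chromosomes 1 to 22 and X in the deposited tables, 59 belonged to these families, and each of the 59 was found in all 4 tables. The cells were the established line WA09, human embryonic stem cells (hESC), and 4 cultures made from it. These were labelled DE for definitive endoderm, MESO for splanchnic mesoderm, NPC for neural progenitor cells and NCSC for pre-neural crest cells. All 5 cell types thus came from 1 line. Each had 2 libraries, and whether those were separate cultures is not stated in the labels. The control hESC grew for 4 days in FGF (8 ng/mL), IGF-I (200 ng/mL), heregulin (10 ng/mL) and activin A (10 ng/mL), seeded at 50000 cells per square centimetre. DE was grown for 4 days at that density in FGF (8 ng/mL) and activin A (100 ng/mL), without IGF-I or heregulin, and with Wnt-3a (25 ng/mL) on the first day only. MESO had the control factors together with Wnt-3a (25 ng/mL) and BMP-4 (100 ng/mL) for 4 days. NPC and NCSC were seeded at 90000 cells per square centimetre and grown for 6 days with IGF-I (200 ng/mL) and heregulin (10 ng/mL) but no activin A. NPC had no FGF and received SB431542, which blocks activin receptors, and LDN (500 nM), which blocks BMP receptors. NCSC kept FGF (8 ng/mL) and received SB431542 and BIO, a GSK3 inhibitor.

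Amino acid carriers set which amino acids enter and leave a cell. The SLC7 light chains work as exchangers bound by a disulfide bridge to the heavy chain SLC3A2, also called CD98, which brings them to the cell surface; SLC7A5 of this group takes up leucine and other large neutral amino acids in exchange for glutamine. Sodium-coupled carriers of SLC1 and SLC38 supply glutamine and other small neutral amino acids, and the SLC7 cationic carriers supply arginine and lysine. Many SLC6 and some SLC1 members are best known for clearing transmitters in the nervous system, among them dopamine, GABA, glycine and glutamate.

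Each table gave 1 level per cell type, in fragments per kilobase of transcript scaled by the mapped fragments (FPKM), with the authors having combined the libraries. The spread between libraries and their depth are therefore unknown. A change is the log2(FPKM + 1) value of a derivative less the hESC value in the same table, which understates the change of low genes. A member rose or fell where the q-value of the authors' deposited table was below 0.05, and it was not tested where that table lists a p-value of 1 and a statistic of 0. All 4 comparisons share hESC, so their values are set side by side and were not tested against each other. These being bulk cultures, fewer cells of a type and less RNA per cell cannot be told apart. Where the hESC level is given as a range, it spans the 4 tables. By the labels the same 2 hESC libraries lie behind all 4 tables, so this range is not read as a spread between libraries or cultures.

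Carriers fell far more often than they rose in NPC and NCSC, and changed in both directions in mesoderm. NPC and NCSC are called the neural derivatives here by their labels alone. No carrier was called in endoderm by the authors' test, which called few loci of any kind there. NPC and NCSC alone were seeded at 90000 cells per square centimetre and grown for 6 days, so cell type, density, days and factors cannot be told apart. In NPC, 18 of 38 tested members were called (47.4%), of which 14 fell and 4 rose (all loci tested: 36.8% called, 24.8% fell and 12% rose). In NCSC 18 of 36 were called (50%), with 16 falling and 2 rising, against 29.9% of all loci called, 19.7% falling and 10.2% rising. In MESO 11 of 37 were called (29.7%), with 6 rising and 5 falling, against 14.4% of all loci called, 9.05% rising and 5.37% falling. In DE 0 of 38 were called, where 0.426% of all loci were called, 0.406% rising and 0.0203% falling; 3 members, SLC1A1, SLC7A5 and SLC38A4, had an unadjusted p-value below 0.05, as did 4.88% of all loci, and p-values computed from the deposited statistic also called 0 members.

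The members' median change was below that of all loci in NPC, NCSC and DE and above it in MESO. Among members at 1 FPKM or more in either cell type the median log2 change was -0.66 in NPC (35 members) and -0.70 in NCSC (33 members), where the medians of all loci past that minimum were -0.27 and -0.23. It was 0.31 in MESO (35 members, all loci 0.07) and -0.13 in DE (32 members, all loci 0.05). Of these, 5 members in MESO, 3 in NPC and 1 in NCSC passed the minimum through the derivative alone and so had to be higher there. Conversely, 1 member in DE, 2 in MESO, 3 in NPC and 3 in NCSC passed through hESC alone and had to be lower in the derivative. Lower values than in hESC were found for 26 of 35 members in NPC (74.3%, against 61.8% of loci) and for 25 of 33 in NCSC (75.8%, against 61.1%).

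**Figure D1:**
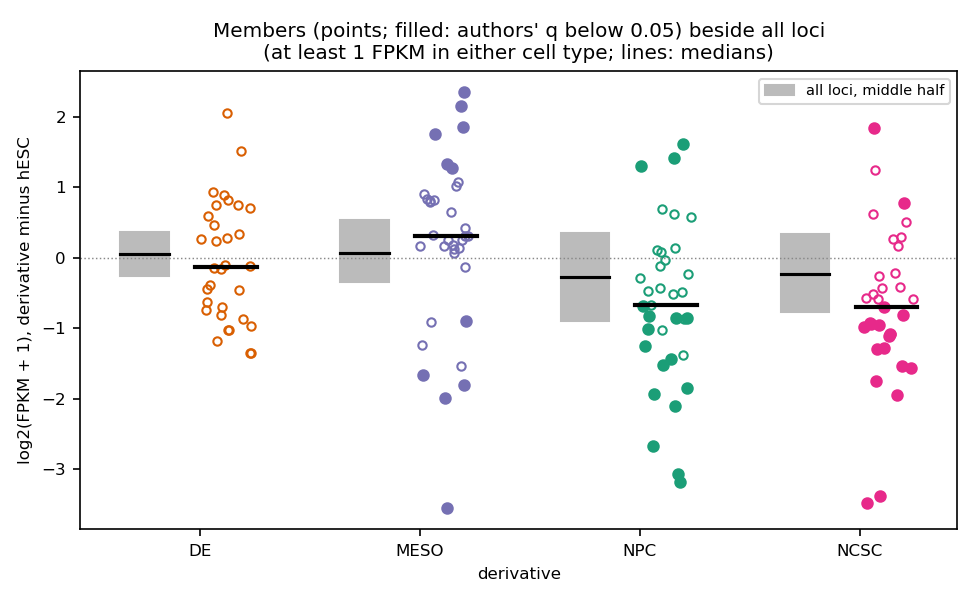
Change of each member against hESC in log2(FPKM + 1) (vertical axis) for the 4 derivatives, for members that reach 1 FPKM in hESC or the derivative; filled points have an authors' q below 0.05, thick lines are the members' medians, and grey boxes with thin lines are the middle range between quartiles and the median of all loci. The members' medians in NPC (-0.66) and NCSC (-0.70) lie below those of all loci, and the DE points are all open.

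These calls are those of the authors' q-value. When p-values were recomputed from the deposited statistic under a normal distribution, 4 members were called in MESO (10.8% of those tested, against 7.85% of all loci by the same rule), 13 in NPC (34.2% against 22.1%) and 10 in NCSC (27.8% against 15.8%). In DE that rule called 1.22% of all loci and 0 members. The calls lost were SLC1A4, SLC6A8, SLC7A4, SLC7A7, SLC38A4, SLC43A1 and SLC43A2 in MESO, SLC1A5, SLC6A16, SLC7A1, SLC7A8, SLC38A1 and SLC38A2 in NPC, and SLC1A5, SLC6A15, SLC6A16, SLC7A8, SLC7A11, SLC38A2, SLC38A5 and SLC38A10 in NCSC. SLC6A3 was called in NPC by that rule only. The falls of SLC7A5, SLC3A2, SLC7A2, SLC7A3, SLC38A7, SLC43A1 and SLC43A3 in both neural derivatives passed by both rules.

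Of the 59 members, 36 reached 1 FPKM in some column, 23 reached 10 and 8 reached 100. By the mean over the 5 cell types the order was SLC3A2 (223 FPKM), SLC7A5 (166), SLC38A2 (109), SLC1A5 (88.3), SLC6A8 (54.7), SLC38A1 (52.5), SLC7A8 (51.4), SLC7A3 (45.2), SLC6A6 (34.7) and SLC36A4 (29.8). No spread is available to say which neighbours in this order differ. 4 members, SLC7A2, SLC7A3, SLC38A5 and SLC43A1, were called in 3 tables, 10 in 2, 15 in 1 and 30 in none. Of those 30, 8 were at 1 FPKM or more in some column: SLC1A6, SLC6A9, SLC7A6, SLC7A10, SLC36A1, SLC36A4, SLC38A3 and SLC38A6.

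**Figure D2:**
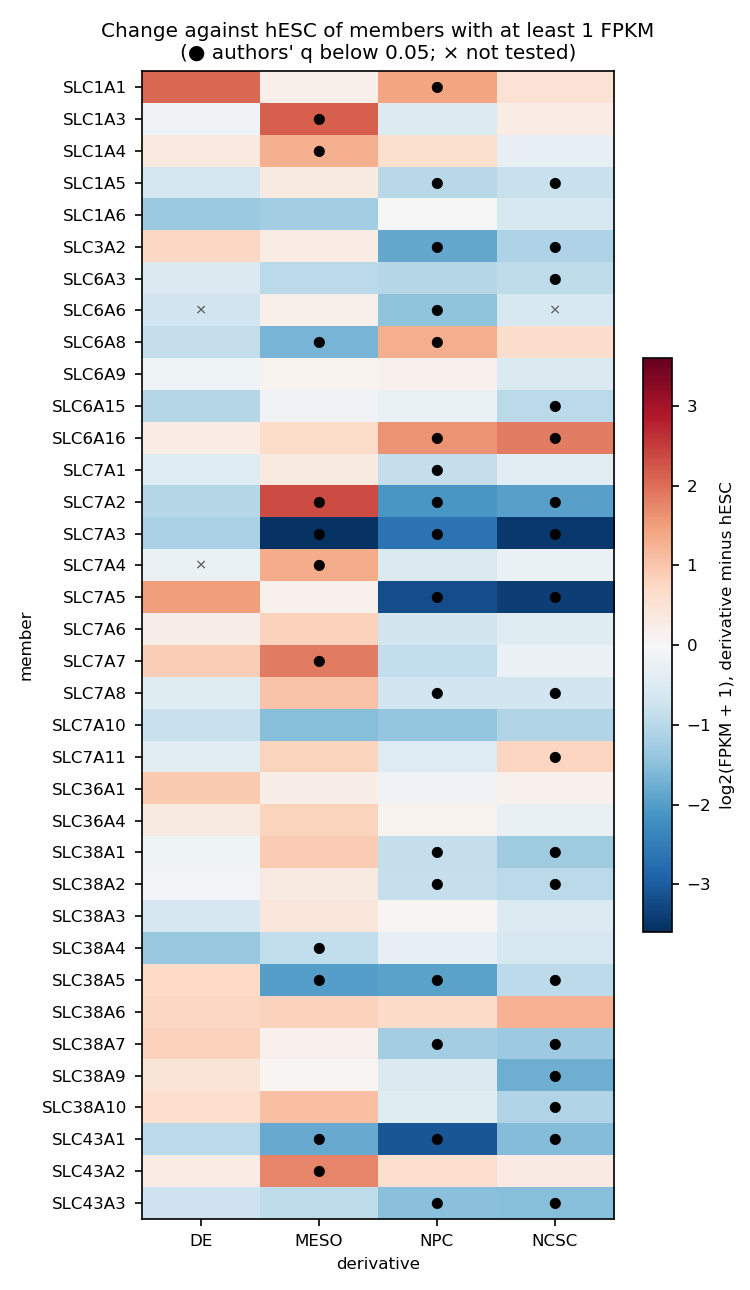
Log2(FPKM + 1) change against hESC (colour scale, red higher and blue lower in the derivative) of the 36 members that reached 1 FPKM in some column, one row each, in the 4 derivatives; dots mark an authors' q below 0.05 and crosses mark loci not tested. Blue cells with dots fill much of the NPC and NCSC columns, MESO has dotted cells of both colours, and DE has no dot.

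SLC7A5 and its heavy chain SLC3A2, the most abundant members by mean FPKM, fell in both neural derivatives. SLC7A5 (chromosome 16, 87863628 to 87903100, hg19) stood at 115, 222, 250 and 235 FPKM in hESC of the DE, MESO, NPC and NCSC tables, and at 330 in DE, 246 in MESO, 26.6 in NPC and 21.7 in NCSC. Both neural derivatives lay far below every hESC value, while MESO lay within the hESC range and DE above it. Against hESC it was 9.4-fold lower in NPC (log2 change -3.18) and 10.9-fold lower in NCSC (-3.38), with q = 0.000323 and 0.000455 in the authors' deposited tables. The authors' deposited tables give no call for MESO (0.15, q = 0.922) or for DE (1.52, q = 0.53). The DE value rests on a low hESC level in that table: set against the median hESC level of the other 3 tables, it was 0.49. Whether the 4 tables share a common scale is not known, and every level set across tables here depends on it.

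SLC3A2 (chromosome 11, 62623478 to 62656355, hg19), the heavy chain, was listed at 183, 273, 306 and 288 FPKM in hESC in the same order of tables, at 308 in DE, 326 in MESO, 83.8 in NPC and 133 in NCSC. It fell 3.65-fold in NPC (log2 change -1.85) and 2.17-fold in NCSC (-1.11), with q = 0.000323 and 0.000848 in the authors' deposited tables. Its values were thus lower in the same derivatives as SLC7A5, and by a smaller factor. SLC3A1, the heavy chain of the kidney and gut cystine carrier, was at most 0.214 FPKM in any column and was not tested.

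Of the other light chains 1 also fell in both neural derivatives, and 2 rose in single derivatives. SLC7A8, a second exchanger of neutral amino acids, ranged from 48.8 to 57.1 FPKM in hESC and stood at 41.7 in DE, 100 in MESO, 32.5 in NPC and 30.4 in NCSC; it fell in NPC (log2 change -0.69, q = 0.0364 in the authors' deposited table) and NCSC (-0.70, q = 0.0386) and did not pass in MESO (1.03, q = 0.126). With quantile normalization its changes in NPC and NCSC were -0.21 and -0.37. SLC7A11, which imports cystine for glutathione synthesis, rose in NCSC from 12.2 to 21.7 FPKM (0.78, q = 0.0373 in the authors' deposited table), the only light chain to rise there. SLC7A7, an exchanger of cationic for neutral amino acids, rose in MESO from 2.62 to 12.1 FPKM (1.86, q = 0.00466 in the authors' deposited table). SLC7A6, with 6.74 to 18.1 FPKM, and SLC7A10, with 0.345 to 3.15 FPKM, passed in no table. Part of the SLC7A6 signal cannot be told apart from that of SLC7A6OS, whose exons overlap 3371 bases of SLC7A6 exons on the other strand, because use of strand in counting is not given in the sources used here. Overlapping genes share exon bases with other members to a smaller extent: 865 for SLC7A11 with SLC7A11-AS1, 780 for SLC1A5, 610 for SLC38A10, 271 for SLC7A5 and 239 for SLC6A6 with GRIP2. SLC7A5 likewise has near-identical copies, SLC7A5P1 and SLC7A5P2; SLC7A5P2 fell with it in NPC from 19.4 to 3.35 FPKM.

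Added up, the 6 light chains SLC7A5, SLC7A6, SLC7A7, SLC7A8, SLC7A10 and SLC7A11 gave 1.07 to 1.09 FPKM per FPKM of SLC3A2 in the 4 hESC columns. This sum, a grouping made after the values were seen, was 1.29 per FPKM of SLC3A2 in DE, 1.21 in MESO, 0.913 in NPC and 0.638 in NCSC. The make-up of the sum also differed between cell types. SLC7A5 gave 58.7% of it in hESC of the DE table and 74.9% to 75.2% in hESC of the other 3, against 82.9% in DE, 62.4% in MESO, 34.8% in NPC and 25.6% in NCSC. SLC7A8 was the largest light chain of NPC (42.6%) and of NCSC (35.9%), and SLC7A11 made up 25.6% in NCSC against 3.21% to 3.88% in hESC. RNA shares of this kind do not measure protein at the surface.

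**Figure D3:**
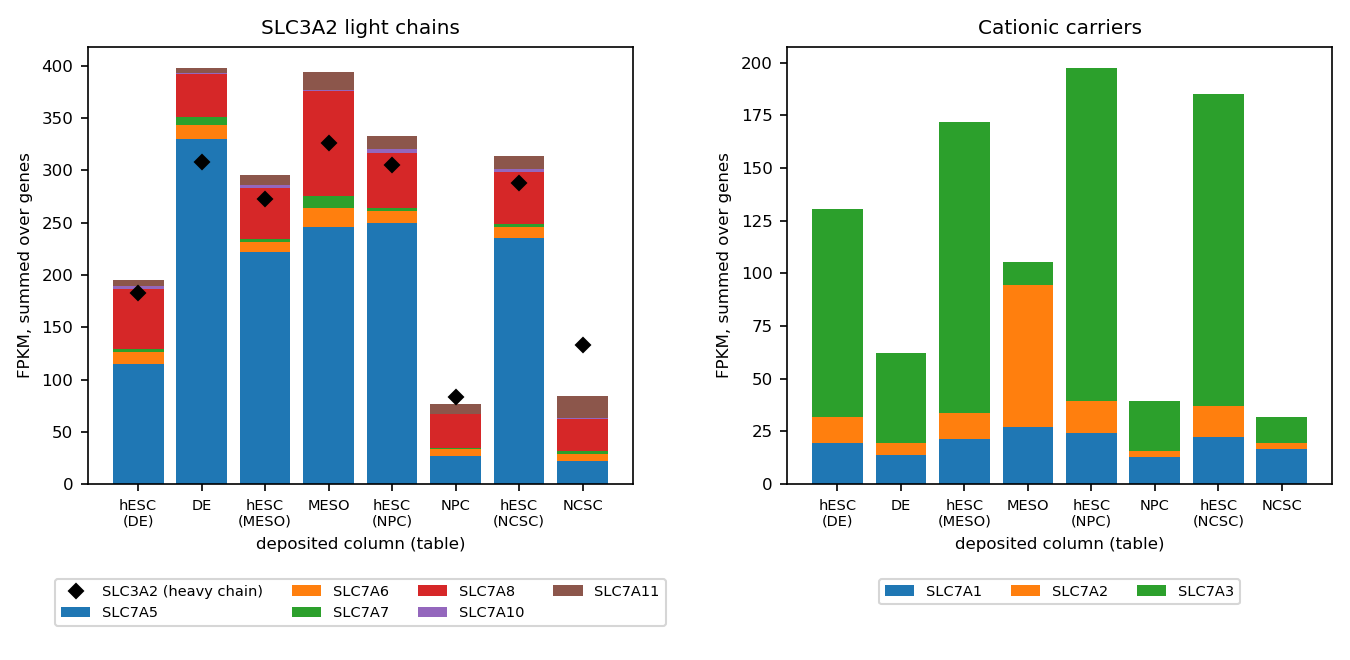
Left, summed FPKM of the 6 light chains (stacked bars) and FPKM of the heavy chain SLC3A2 (diamonds); right, summed FPKM of the cationic carriers SLC7A1, SLC7A2 and SLC7A3, in each of the 8 deposited columns, with the table of each hESC column in brackets. SLC7A5 fills 74.9% to 75.2% of the light chain bar in 3 hESC columns and 25.6% in NCSC, and SLC7A2 fills 64.2% of the cationic bar in MESO.

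Promoter sequences are shown for members that were called in NPC and NCSC and that carry the E-box CACGTG, the letters bound by MYC and by the MiT/TFE factors of lysosomal regulation. RefSeq promoter windows of GRCh38.p14, from 250 bases before to 50 bases after a start, matched 44 of the 59 members (66 windows). The letters CACGTG, which read the same on both strands, were present in 10 of the 44 members (22.7%) and in 8.77% of 27305 genes; by window the shares were 15.2% of 66 and 7.26% of 35116. A member with several windows has more chances to hold the letters. The stretches below are upstream of the start, overlap no annotated exon, and are written 5′ to 3′ on the gene's strand with the E-box in capitals.
SLC7A5, chr16:87869587-87869682, minus strand: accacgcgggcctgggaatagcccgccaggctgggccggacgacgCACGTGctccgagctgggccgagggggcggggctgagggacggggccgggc
SLC43A1, chr11:57515787-57515859, minus strand: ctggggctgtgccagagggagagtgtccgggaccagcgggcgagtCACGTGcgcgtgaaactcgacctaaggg
SLC7A8, chr14:23154472-23154567, minus strand: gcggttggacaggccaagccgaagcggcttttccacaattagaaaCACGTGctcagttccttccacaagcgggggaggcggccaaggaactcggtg
SLC38A5, chrX:48470416-48470510, minus strand: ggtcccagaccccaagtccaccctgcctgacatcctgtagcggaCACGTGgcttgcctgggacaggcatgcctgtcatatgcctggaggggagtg
SLC6A16, chr19:49325280-49325375, minus strand: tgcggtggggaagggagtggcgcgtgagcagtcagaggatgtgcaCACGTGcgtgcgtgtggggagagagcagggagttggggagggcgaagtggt
The E-box lay 130 bases before the start in SLC7A5, 112 in SLC43A1, 129 in SLC7A8, 206 in SLC38A5 and 139 in SLC6A16. The first 4 of these genes fell in both neural derivatives and SLC6A16 rose in both, so the same letters were present beside changes in either direction.

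Of the 10 members with an E-box 9 were tested, and 6 of these fell and 1 rose in NPC and likewise in NCSC. Those that fell were SLC1A5, SLC7A5, SLC7A8, SLC38A5, SLC38A7 and SLC43A1 in each, and SLC6A16 rose. Of all loci 24.8% fell and 12% rose in NPC, and 19.7% fell and 10.2% rose in NCSC. Of 19 tested members with a matched promoter and no E-box, 4 fell and 2 rose in NPC, and 5 fell and 0 rose in NCSC. Members without a matched promoter were not searched and are in neither count. Among them SLC7A2, SLC7A3 and SLC43A3 fell in both NPC and NCSC, SLC6A6 in NPC, and SLC6A3 and SLC6A15 in NCSC. In MESO 2 of the 9 fell (SLC38A5 and SLC43A1) and 1 rose (SLC7A7), and of the 19 without an E-box 2 fell and 3 rose. There 5.37% of all loci fell and 9.05% rose. These are counts of letters in a window, and binding was not measured.

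In family SLC43, SLC43A1 and SLC43A3 fell in both neural derivatives and SLC43A2 rose in MESO. SLC43A1, a sodium-independent carrier of branched and aromatic amino acids (chromosome 11, 57251982 to 57283192, hg19), stood at 6.82, 10.1, 11.2 and 10.5 FPKM in hESC and at 2.99 in DE, 2.16 in MESO, 0.447 in NPC and 2.87 in NCSC, so every derivative was below every hESC column. It fell in MESO (log2 change -1.81, q = 0.0134 in the authors' deposited table), NPC (-3.08, q = 0.000323) and NCSC (-1.57, q = 0.000455) and did not pass in DE (-0.97, q = 0.999). SLC43A2, a carrier of like substrates, rose in MESO from 4.61 to 17.9 FPKM (1.75, q = 0.00274 in the authors' deposited table), and in NPC stood at 8.08 against 4.93 (0.62, q = 0.0915). SLC43A3, a purine base carrier, fell in NPC from 9.25 to 2.58 FPKM (-1.52) and in NCSC from 8.73 to 2.35 (-1.54). Its levels in DE (3.53) and MESO (3.81) also lay below the hESC range of 6.57 to 9.25 FPKM. They did not pass (-0.74, q = 0.999 in DE, and -0.91, q = 0.184 in MESO, in the authors' deposited tables). A neighbouring transcript on the same strand shares 1349 exon bases with SLC43A3. SLC43A2 made up 19.4% to 22.9% of the family's summed FPKM in hESC and 43.7% in DE, 75% in MESO, 72.7% in NPC and 53% in NCSC.

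Of the arginine and lysine carriers SLC7A3 fell in MESO, NPC and NCSC, and SLC7A2 rose in MESO alone. SLC7A3 (chromosome X, 70145421 to 70150984, hg19), a cationic carrier known from embryonic stem cells and brain, stood at 98.4, 138, 158 and 148 FPKM in hESC and at 42.9 in DE, 10.8 in MESO, 24 in NPC and 12.4 in NCSC. All derivatives lay below all hESC columns. The fall was 12.8-fold in MESO (log2 change -3.56, q = 0.000868 in the authors' deposited table), 6.59-fold in NPC (-2.67, q = 0.000323) and 12-fold in NCSC (-3.48, q = 0.000455), and the value in DE did not pass (-1.18, q = 0.999).

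SLC7A2 (chromosome 8, 17354596 to 17428077, hg19), the cationic carrier of liver and activated macrophages, was listed at 12.3, 12.4, 15.5 and 14.4 FPKM in hESC, 5.5 in DE, 67.7 in MESO, 2.84 in NPC and 2.97 in NCSC. MESO alone was above the hESC range, and the other 3 derivatives were below it. It rose 5.45-fold in MESO (log2 change 2.35, q = 0.000868 in the authors' deposited table) and fell in NPC (-2.10, q = 0.000323) and NCSC (-1.95, q = 0.000455). SLC7A1, the cationic carrier of most dividing cells, varied less, from 12.9 to 27 FPKM in all columns, and fell in NPC only (-0.86, q = 0.00792 in the authors' deposited table; -0.41, q = 0.238 in NCSC). Of the summed FPKM of these 3 carriers SLC7A3 gave 75.5% to 80.3% in hESC, 68.7% in DE and 60.4% in NPC, whereas SLC7A2 gave 64.2% in MESO and SLC7A1 gave 52.1% in NCSC. The sum itself was 130 to 198 FPKM in hESC, 62.5 in DE, 106 in MESO, 39.6 in NPC and 32.1 in NCSC. SLC7A4, a relative with no established transport activity, rose in MESO from 0.403 to 2.53 FPKM (1.33, q = 0.0187 in the authors' deposited table).

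The abundant carriers of glutamine and other small neutral amino acids fell in both neural derivatives. SLC1A5, a sodium-dependent glutamine exchanger, stood at 92, 113, 126 and 118 FPKM in hESC, 59.4 in DE, 141 in MESO, 62 in NPC and 66.9 in NCSC. SLC38A2, a glutamine and alanine carrier induced on amino acid shortage, stood at 128, 116, 145 and 133 FPKM in hESC, 119 in DE, 145 in MESO, 80.8 in NPC and 68 in NCSC. SLC38A1, its close relative, stood at 45.9, 56.3, 62.1 and 60.1 FPKM in hESC, 41.5 in DE, 107 in MESO, 33.9 in NPC and 24.1 in NCSC. For all 3 the NPC and NCSC values lay below the lowest hESC value. The DE values of SLC1A5 and SLC38A1 did so too, and SLC1A5 was lower in DE than in any other column. The log2 changes in NPC were -1.01 for SLC1A5, -0.83 for SLC38A2 and -0.85 for SLC38A1, with q from 0.00333 to 0.00792 in the authors' deposited table. In NCSC they were -0.81, -0.96 and -1.29, with q = 0.0194, 0.00281 and 0.000455 there. Quantile normalization of the 2 columns of the table brought the NPC changes to -0.44, -0.23 and -0.37, and that of SLC1A5 in NCSC to -0.49. None passed in MESO, where q was 0.738, 0.717 and 0.187 in the authors' deposited table, or in DE, where q was 0.999 for each.

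SLC38A5, a carrier of glutamine, histidine and serine, was at 9.25, 10.3, 10.8 and 10.1 FPKM in hESC, 15.7 in DE, 1.85 in MESO, 2.07 in NPC and 4.77 in NCSC. It fell in MESO (log2 change -1.99, q = 0.00274 in the authors' deposited table), NPC (-1.94, q = 0.000323) and NCSC (-0.95, q = 0.0315). SLC38A4, a relative that is imprinted in mouse, fell in MESO from 1.2 to 0.185 FPKM (-0.89, q = 0.0382). Added together, SLC1A5, SLC38A1, SLC38A2 and SLC38A5 gave 275 to 343 FPKM in hESC, 235 in DE, 394 in MESO, 179 in NPC and 164 in NCSC, again a sum chosen after the values were seen.

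Carriers of the lysosome were among those that fell. SLC38A9, the lysosomal arginine sensor of the mTORC1 pathway, was at 10.3, 14.5, 17.7 and 16 FPKM in hESC, 14.6 in DE, 15.2 in MESO, 12.1 in NPC and 4.05 in NCSC. It fell in NCSC (log2 change -1.75, q = 0.000455 in the authors' deposited table) but did not pass in NPC (-0.51, q = 0.204). SLC38A9 was split over 5 rows in the NCSC table and had 1 row in each other table. Its NCSC values are those of the row of highest mean FPKM alone. SLC38A7, a lysosomal glutamine exporter, fell from 11.6 to 4.31 FPKM in NPC (-1.25) and from 10.9 to 3.82 in NCSC (-1.30). SLC38A10, a further member of the family, fell in NCSC from 10.1 to 4.27 FPKM (-1.08, q = 0.00484 in the authors' deposited table). SLC36A4, a carrier of family SLC36 also found on lysosomes, was among the 10 most abundant members and passed in no table, with 21.8 to 39.3 FPKM over all columns. SLC36A1 had 3.93 to 8.53 FPKM and passed in none, and SLC36A2 and SLC36A3 stayed below 1 FPKM.

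**Figure D4:**
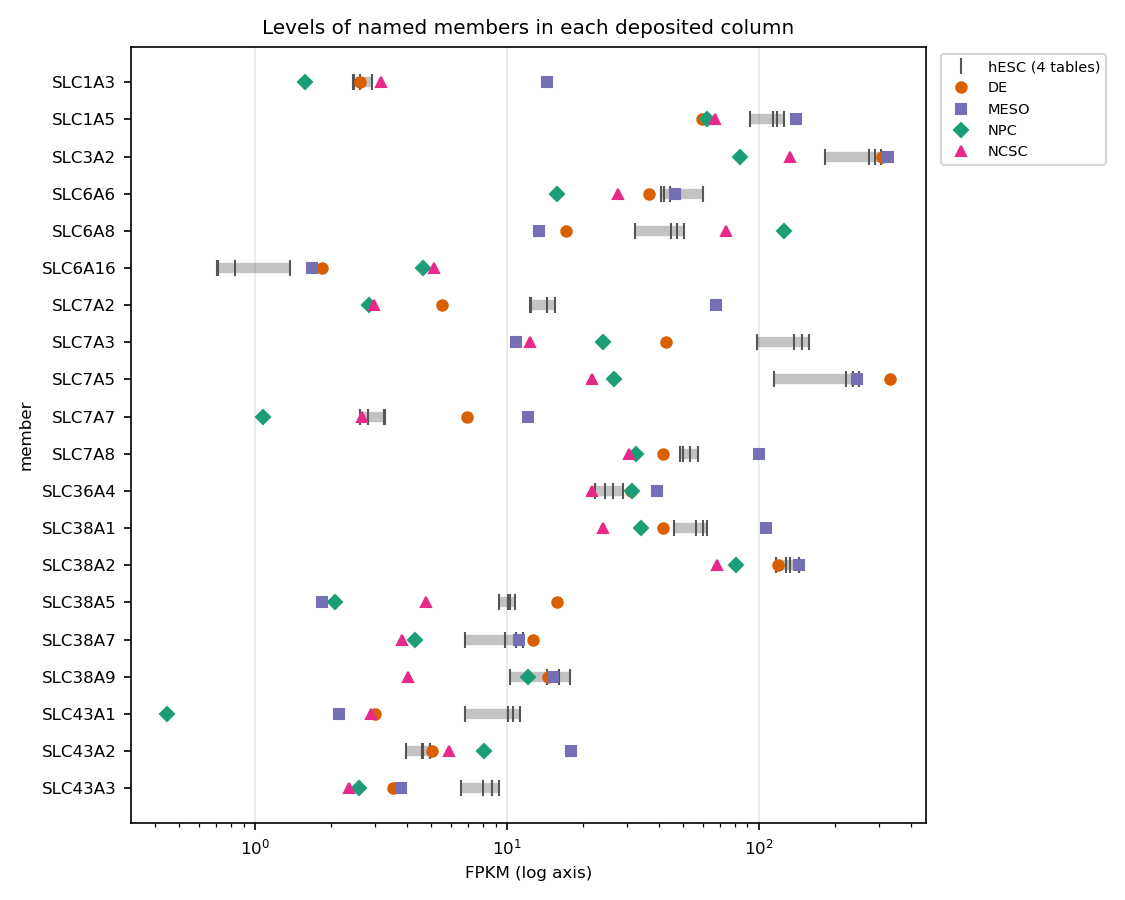
FPKM (log axis) of 20 of the named members, one row each, with grey bars and ticks for the hESC values of the 4 tables and symbols for the 4 derivatives. SLC7A5, SLC3A2 and SLC7A3 have NPC and NCSC symbols left of the whole hESC bar, SLC7A2 and SLC1A3 have MESO to the right of it, and SLC6A8 has NPC on the right and MESO on the left.

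Glutamate carriers rose in single derivatives. SLC1A3 (chromosome 5, 36606456 to 36688436, hg19), the glutamate carrier of radial glia and astrocytes, stood at 2.91, 2.45, 2.61 and 2.46 FPKM in hESC, 2.62 in DE, 14.4 in MESO, 1.58 in NPC and 3.17 in NCSC. It rose 5.87-fold in MESO (log2 change 2.16, q = 0.00635 in the authors' deposited table) and did not pass in NPC (-0.49, q = 0.244). The 4 astroglial markers summed to 1.28 FPKM in MESO (2.56 in hESC) and 0.34 in NPC (2.98 in hESC), where 2 fell. SLC1A1, the neuronal and epithelial glutamate and cysteine carrier, ranged from 0.907 to 1.36 FPKM in hESC and reached 8.84 in DE and 4.69 in NPC. It rose in NPC (1.41, q = 0.000607 in the authors' deposited table), and the larger difference in DE did not pass (2.06, q = 0.239). SLC1A4, a carrier of serine and alanine, rose in MESO from 0.852 to 3.47 FPKM (1.27, q = 0.0308). SLC1A2, the main glutamate carrier of mature astrocytes, rose in NPC but reached only 0.646 FPKM from 0.162. SLC1A6 passed in no table, at 3.31 to 10.2 FPKM, and SLC1A7 stayed below 1 FPKM.

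The amino acid response core TGATGCAA, letters bound by ATF4 with C/EBP partners, was searched on both strands of the same windows. It was present in 3 of the 44 matched members (6.82%), SLC1A3, SLC1A4 and SLC1A5, and in 1.08% of all genes with a window. The stretch of SLC1A3 is given because this member rose in MESO, with the motif in capitals 220 bases before the start (GRCh38.p14).
SLC1A3, chr5:36596338-36596420, plus strand: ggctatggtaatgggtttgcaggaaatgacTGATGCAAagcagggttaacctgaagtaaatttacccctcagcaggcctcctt
In MESO 2 of these 3 members rose (SLC1A3 and SLC1A4), as did 2 of 25 tested members with a matched promoter and without the letters. Of all loci 9.05% rose. In NPC and NCSC 1 of the 3 fell (SLC1A5), as did 9 and 10 of 25 without them, and 24.8% and 19.7% of all loci. Binding of ATF4 was not measured.

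Among SLC6 carriers the creatine carrier SLC6A8 (chromosome X, 152953682 to 152962086, hg19) changed in opposite directions. It stood at 32.1, 44.8, 50.2 and 47.3 FPKM in hESC, 17.2 in DE, 13.4 in MESO, 126 in NPC and 73.7 in NCSC, so DE and MESO lay below the hESC range and NPC and NCSC above it. It rose 2.5-fold in NPC (log2 change 1.31, q = 0.000323 in the authors' deposited table), fell 3.34-fold in MESO (-1.67, q = 0.00274) and did not pass in NCSC (0.63, q = 0.113) or DE (-0.86, q = 0.999). Its near-identical copy SLC6A10P was listed at 5.17 FPKM in NPC against 2.15 in hESC, so that reads could be shared between them. SLC6A16, an orphan member with no known substrate, ranged from 0.708 to 1.38 FPKM in hESC and rose in NPC to 4.62 (1.62, q = 0.00375 in the authors' deposited table) and in NCSC to 5.14 (1.85, q = 0.000455), the only member called as rising in more than 1 table.

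The taurine carrier SLC6A6 fell in NPC from 44.4 to 15.8 FPKM (log2 change -1.44, q = 0.000323 in the authors' deposited table). It was not tested in DE (60.2 in hESC, 36.6 in DE) or NCSC (42 and 27.7). SLC6A15, a carrier of branched-chain amino acids and proline in neurons, fell in NCSC from 5.81 to 2.44 FPKM (-0.98, q = 0.017 in the authors' deposited table). The dopamine carrier SLC6A3 fell in NCSC from 1.05 to 0.0772 FPKM (-0.93, q = 0.00902) and had hESC values of 0.498 to 1.11 FPKM. Its levels in DE (0.0462), MESO (0.011) and NPC (0.0335) were lower still and did not pass. SLC6A3 too was split over rows in the NCSC table, 3 of them, and the row of highest mean FPKM was taken. The glycine carrier SLC6A9, at 3.46 to 7.42 FPKM, passed in no table.

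Below 1 FPKM in every column, the neural derivatives included, were 23 members, among them the GABA carriers SLC6A11 and SLC6A13, the betaine carrier SLC6A12, the noradrenaline carrier SLC6A2, the serotonin carrier SLC6A4, the proline carriers SLC6A7 and SLC6A20, and the intestinal and renal carriers SLC6A19 and SLC7A9. Other carriers known for clearing transmitters did reach 1 FPKM in NPC, with 9.98 FPKM for SLC1A6, 7.42 for SLC6A9, 4.69 for SLC1A1 and 1.58 for SLC1A3. The highest value among the 23 was 0.947 FPKM, for SLC36A2 in DE. The glycine carrier SLC6A5 and SLC7A13 were listed at 0 in all columns. In all, 17 members were tested in no table. Of the neuron markers MAP2, TUBB3, STMN2, DCX, ELAVL3 and ELAVL4, 3 rose and 2 fell in NPC, and their sum was 85.9 FPKM against 141 in hESC. In NCSC 2 rose and 0 fell, and the sum was 132 FPKM in both NCSC and hESC. A single marker held 42.1 FPKM of the NPC sum and a single marker 101 of the NCSC sum. The part of these markers' cells in the carrier levels was not tested.

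Genes that sense or respond to amino acid supply were counted from lists set apart from the carriers. Of 18 genes of the ATF4 response, 5 rose and 0 fell of 18 tested in MESO, where 9.05% of all loci rose and 5.37% fell. The rises were led by ATF3 (9.2 to 57.4 FPKM) and TRIB3 (3.53 to 16). ATF3 is a stress-induced transcription factor and TRIB3 a pseudokinase. In NPC 1 rose and 5 fell of 17, and in NCSC 1 rose and 4 fell of 17, near the shares of all loci that fell (24.8% and 19.7%). The 1 that rose in both was DDIT4, an mTORC1 inhibitor induced by stress, from 64.3 to 239 FPKM in NPC and from 60.5 to 383 in NCSC, while ATF4 itself fell in NPC from 235 to 128 and the asparagine synthetase ASNS fell in both (106 to 59.8, and 100 to 58.6). Of 24 genes of lysosomal mTORC1 sensing, 3 rose and 0 fell in MESO, where 14.4% of all loci were called and 9.05% rose. In NPC 1 rose and 2 fell, and in NCSC 2 rose and 0 fell, smaller shares than the 36.8% and 29.9% of all loci called. The called genes included the lysosomal regulator TFEB in MESO (0.799 to 12.6 FPKM) and the Rag GTPases RRAGC (19.1 to 7.78) and RRAGB (2.9 to 7.45) in NPC. In DE 0 genes of either list were called.

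Markers bear on what each culture held. Of the markers of their own label, 5 of 6 rose in DE, 6 of 6 in MESO, 4 of 5 in NPC and 4 of 6 in NCSC. NCSC markers also rose in NPC, 4 of 6 (summed FPKM 3.83 in hESC and 30.7 in NPC). Of the 5 NPC markers 1 rose in NCSC (summed FPKM 0.829 in hESC and 10.7 in NCSC), and 4 were below 1 FPKM there. The 5 hESC markers summed to 760 FPKM in NPC (1471 in hESC), where 3 fell and 1 rose, and to 524 in NCSC (1373 in hESC), where 3 fell. A single marker held 418 FPKM of the NPC sum, and a single marker held 274 of the NCSC sum. In NPC 2 of the 5 were below 1 FPKM, and in NCSC 1 was. In MESO 5 of 6 amnion and trophoblast markers also rose (summed FPKM 2.53 in hESC and 339 in MESO, none at 0), as did 4 of 5 fibroblast markers (114 and 1175) and 5 of 6 NCSC markers (3.42 and 201). The NCSC markers summed to 48 FPKM in NCSC, where 2 of 5 fibroblast markers rose (113 and 742). The part of these markers' cells in the MESO, NPC and NCSC changes of SLC7A2, SLC1A3, SLC7A11 and the other carriers was not tested.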

How the data were processed

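RNA from 10 libraries, 2 for each of 5 cell types, was enriched for poly(A) and sequenced, per the labels' protocols. Tools named in the submitters' processing notes are Cufflinks 2.2.1, TopHat2 2.0.13, featureCounts and Subread 1.5.2, with build hg19 and no role for any of them. Strand, scaling and depth: not given in the sources used here. Each of the 4 tables that the authors deposited has an FPKM column for hESC and another for its derivative, libraries combined. The test statistic (a signed score), the p-value and the q-value are the authors' and deposited with them; the lowest p-value is 5e-05.

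Gene cells were split at commas, chromosomes 1 to 22 and X kept, and the row of highest mean FPKM taken per symbol; 7 members had several rows in the NCSC table, and none lay in a merged locus or had a score and FPKM ratio of opposite sign. Changes are log2(FPKM + 1), with a minimum of 1 FPKM for medians. Calls use the authors' q-value below 0.05, adjusted over each whole table. limma on libraries had been planned and could not be run on 1 value per cell type, so the differences have no replicate check. Members, roles and other lists were chosen with earlier results of these data known. Named with values were members called in 2 or more tables, up to 8 of the largest called changes per table, the 10 of highest mean FPKM, SLC3A1 and SLC3A2, and for other lists up to 4 called genes per table; further members are named after their values were seen. Alternatives were pseudocounts of 0.1 and 5, no FPKM minimum, centring, quantile normalization, a minimum log2 change of 1, hESC from the other 3 tables, and p-values recomputed from the score, a step tested on simulated data. Python 3.11.15, pandas 2.3.3, numpy 2.4.6, scipy 1.17.1 and matplotlib 3.10.9 were used. Promoters are RefSeq's, GRCh38.p14, and exon overlaps are from GENCODE on GRCh38; neither was joined to the hg19 coordinates.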

Additional observations from a re-analysis of the deposited data

Results flagged for a closer look

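SLC7A2 and SLC6A8 were called in opposite directions in different derivatives. The log2 change of SLC7A2 was 2.35 in MESO, -2.10 in NPC and -1.95 in NCSC. For SLC6A8 it was -1.67 in MESO and 1.31 in NPC. By p-values recomputed from the deposited statistic, the MESO call of SLC6A8 was lost and the other calls held. The difference between derivatives was not tested, since each table compares 1 derivative with hESC and holds no library values.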

How the results depend on the processing

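No paired analysis was possible because each table holds 1 value per cell type with the libraries combined; leaving out a library was not possible for the same reason. With p-values recomputed from the deposited score under a normal distribution, 4 members were called in MESO (2 rose, 2 fell) and 10 in NCSC (0 rose, 10 fell), against 11 and 18; in NPC 13 were called against 18. Requiring a log2 change of at least 1 left 11 in NCSC. Without the FPKM minimum the median log2 change was 0 in DE, 0.15 in MESO, -0.071 in NPC and -0.17 in NCSC, as members near 0 entered. With quantile normalization it was 0.20 in MESO, -0.28 in NPC and -0.41 in NCSC. Centring on all loci gave -0.39 in NPC and -0.47 in NCSC. A pseudocount of 5 gave -0.36 in NPC and -0.43 in NCSC, and one of 0.1 gave -0.82 in NCSC. All 47 called changes of members kept their direction under 5 alternatives (235 values). The pseudocounts of 0.1 and 5 were among these alternatives and cannot reverse a direction, so that part of the count was fixed in advance. Quantile normalization made 4 of 18 in NPC (SLC1A5, SLC7A8, SLC38A1 and SLC38A2) and 2 of 18 in NCSC (SLC1A5 and SLC7A8) over 1.5 times smaller. The 0.1 log2 margin within which a median counted as unmoved, quantile normalization of single members and the 1 FPKM minimum for call counts were chosen after seeing the data.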

Other observations

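Enzymes and carriers that act beside these members were counted by the authors' q-value. Of all tested loci 9.05% rose and 5.37% fell in MESO, 12% and 24.8% in NPC, and 10.2% and 19.7% in NCSC; the lists are small, and nothing particular to them is read from their counts. Of 7 genes of glutathione synthesis, 1 rose in MESO, 3 fell in NPC and 3 fell in NCSC. GCLM, the modifier subunit of the rate-limiting enzyme, stood at 11.2 FPKM in hESC and 32.3 in MESO, at 10.2 and 1.9 in the NPC table, and at 10.5 and 3.91 in the NCSC table; it fell in NCSC, where the cystine carrier SLC7A11 rose. Of the transmitter synthesis and glutamine enzymes, 3 rose and 2 fell of 9 tested in NCSC, among them GAD1, which makes GABA (0.992 to 13.1 FPKM), and the glutamine synthetase GLUL (89.9 to 218). In NPC 0 rose and 4 fell of 10, among them the glutaminase GLS2 (7.34 to 0.769); in MESO GLS2 alone fell of 8. Of 13 tested mitochondrial amino acid carriers, 1 rose and 5 fell in NPC, including the aspartate-glutamate carrier SLC25A12 (5.38 to 0.543), and 1 fell in NCSC. Of vesicular and other transmitter carriers, 0 rose and 1 fell of 5 in MESO, 0 rose and 1 fell of 4 in NPC, and 1 rose and 2 fell of 5 in NCSC, where SLC17A7 rose (1.65 to 5.76). Of peptide, lysosomal and aromatic carriers, 0 of 9 changed in MESO, 2 fell of 10 in NPC, and 1 rose and 2 fell of 10 in NCSC; the aromatic amino acid carrier SLC16A10 fell in both neural derivatives (7.15 to 1.04, and 6.7 to 0.933). In DE 0 genes of these lists were called.

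The hESC column of the DE table differed from the other 3 in both directions. Of 33 members at 1 FPKM or more in some hESC column it was below all other 3 tables for 18, above them for 10 and within them for 5. SLC6A6 was at 60.2 FPKM there and at 41 to 44.4 in the others, SLC7A8 at 57.1 and 48.8 to 53.1, and SLC38A2 at 128 and 116 to 145. SLC7A5 was at 115 FPKM there and at 222 to 250 in the others, SLC3A2 at 183 and 273 to 306, SLC7A11 at 6.29 and 9.48 to 12.8, and ASNS at 43.5 and 89.9 to 106. With the median hESC value of the other 3 tables, the log2 change in DE was 0.10 for SLC3A2 (0.75 within its own table), -1.24 for SLC7A11 (-0.39) and -0.13 for SLC38A9 (0.47), the last with a change of sign. Why the column differs was not tested.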
